A study of Mus musculus with 8 samples.

Results

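The histone cluster genes encode the proteins that package DNA, and they are described here across sorted pigment cell precursors of mouse skin. They were taken by name, as the genes whose symbol in the platform annotation has the form of the clustered H1, H2A, H2B, H3 and H4 genes (H1f, H2ac, H2bc, H3c or H4c with a number). The annotation held 66 such symbols. Of these, 29 had a row of their own in the value table, among 22180 genes measured in all. They comprise 8 H1 genes, 6 H2A genes, 8 H2B genes and 7 H4 genes, with 21 on chromosome 13, 5 on chromosome 3, 2 on chromosome 6 and 1 on chromosome 15. The other 37 symbols, all 12 H3 genes and H1f4 among them, appeared only in rows that name several genes at once, and are described separately. H1f0 was not analysed here.

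Expression was measured on 8 Affymetrix arrays, 1 per sorted sample. P4_WT is a melanoblast population from mice of 4 days (2 arrays). P21_WT is a melanocyte stem cell population from mice of 21 days (2 arrays). P21_KO is the same population at 21 days from mice with floxed B-raf and C-raf (4 arrays). Both genes were intact in the wild-type groups (B-raf +/+ and C-raf +/+), and both were floxed in P21_KO (B-raf fl/fl and C-raf fl/fl). All 3 groups carried TyrCre/°, a Cre recombinase transgene driven by the tyrosinase promoter, and Z/EG, a reporter that makes green fluorescent protein (GFP) after recombination. The strain background was mixed C57Bl/6 and 129/Sv, and the labels place the floxed alleles on 129/Sv and the transgenes on C57Bl/6, so strain around the floxed genes and the deletion cannot be told apart. Cells that were GFP positive and lacked p75 (the nerve growth factor receptor) at the surface were sorted from digested skin, and their RNA was amplified before labelling. The series text gives the wild-type arrays as separate mice. The labels of P21_KO replicates 2, 3 and 4 carry 1 common number that is not explained. Nothing shows that these 3 arrays come from separate mice, so their spread, and with it the p-values, may in part be technical.

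Each nucleosome wraps DNA around a core of H2A, H2B, H3 and H4, and the linker histone H1 binds where DNA enters and leaves it. Most genes of the clusters are transcribed during S phase, when new DNA has to be packaged. Their mRNAs end in a stem-loop bound by SLBP in place of a poly(A) tail, and NPAT, activated by cyclin E with CDK2, switches their transcription on. H1f10 lies outside the clusters and is not tied to replication, while H1f6, H1f7, H1f8, H2ac1 and H2bc1 are known as germ cell histones.

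The promoters of 27 of the 29 genes were found in a RefSeq table of mouse assembly GRCm38.p6, and 4 are shown because the results turn on these genes: H2bc12 and H2ac10 differed between the ages, H1f5 differed most between P21_KO and P4_WT, and H1f2 differed most by p between the genotypes. Each sequence is the 250 bases before the start site, 5′ to 3′ on the gene's strand. Capitals mark 3 motifs, searched on both strands. The first is CCAAT, bound by the factor NF-Y. The second is the TATA box letters TATAAA. The last is TTTGCAT, the final 7 letters of the octamer known from H2B promoters. A motif on the other strand stands as its reverse complement, such as ATTGG for the first. H2bc12 lies at chr13:22035571-22035820 (+), H2ac10 at chr13:23533625-23533874 (+), H1f5 at chr13:21780626-21780875 (-) and H1f2 at chr13:23738557-23738806 (+).
H2bc12: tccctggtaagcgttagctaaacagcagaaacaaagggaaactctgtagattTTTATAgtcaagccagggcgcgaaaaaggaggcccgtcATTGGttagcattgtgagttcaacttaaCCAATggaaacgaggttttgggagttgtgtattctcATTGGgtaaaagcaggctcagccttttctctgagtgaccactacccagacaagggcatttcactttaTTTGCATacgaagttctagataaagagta
H2ac10: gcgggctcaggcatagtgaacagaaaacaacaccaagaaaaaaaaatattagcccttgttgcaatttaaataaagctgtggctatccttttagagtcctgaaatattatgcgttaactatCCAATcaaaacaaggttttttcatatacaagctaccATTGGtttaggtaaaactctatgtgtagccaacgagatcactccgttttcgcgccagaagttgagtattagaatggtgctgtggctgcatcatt
H1f5: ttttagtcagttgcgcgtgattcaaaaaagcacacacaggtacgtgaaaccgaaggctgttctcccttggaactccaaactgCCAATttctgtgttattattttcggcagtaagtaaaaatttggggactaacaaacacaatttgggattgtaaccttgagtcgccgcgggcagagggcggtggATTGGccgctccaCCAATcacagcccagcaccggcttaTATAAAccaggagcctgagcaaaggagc
H1f2: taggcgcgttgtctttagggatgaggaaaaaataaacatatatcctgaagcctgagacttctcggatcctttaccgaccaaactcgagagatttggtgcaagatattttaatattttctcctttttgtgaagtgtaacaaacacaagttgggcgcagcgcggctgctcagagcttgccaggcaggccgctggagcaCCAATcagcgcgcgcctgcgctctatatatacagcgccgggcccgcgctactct

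CCAAT was found in 20 of the 27 histone promoters and in 33.8% of all 32851 promoters in the table. TATAAA was found in 13 of them and in 12.4% of all, and TTTGCAT in 8 of them and in 4.12% of all. The classes differed in these counts. CCAAT was in 7 of 7 H2B promoters, 6 of 6 H2A promoters and 6 of 8 H1 promoters, but in 1 of 6 H4 promoters. TTTGCAT was in 5 of 7 H2B promoters and 3 of 6 H2A promoters, and in 0 of 8 H1 and 0 of 6 H4 promoters. In the promoters shown, H2bc12 held 3 CCAAT matches, 1 TATAAA match and 1 TTTGCAT match, the last 29 bases before its start. Its TATAAA match lay on the other strand, 198 bases before the start. H2ac10 held 2 CCAAT matches and none of the others. H1f5 held 3 CCAAT matches, the nearest 53 bases before its start, and 1 TATAAA match at 28 bases. H1f2 held 1 CCAAT match at 54 bases. Such matches are letters in a window and not measured binding. The windows of 2 divergent pairs overlap, so the matches within each pair are not independent: H2ac12 and H2bc12 start 178 bases apart on opposite strands, and H2ac1 and H2bc1 start 281 bases apart.

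The values are RMA log2 values, on which a difference of 1 is a factor of 2, and each array's median lay between 3.16 and 3.27. Of the 29 histone genes, 9 read below the array median on all 8 arrays and 7 read above it on all 8. For a gene below the median in a group, RMA compresses the difference, so its fold is probably understated. Each gene's mean was compared between groups with limma, and a gene was called at a Benjamini-Hochberg adjusted p under 0.05 over all 22180 genes. In these bulk samples, fewer cells of a type and less RNA per cell cannot be told apart.

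The sorted samples were checked against cell type markers. The mean over 10 melanocyte lineage markers was 9.60 to 9.64 in P4_WT, 8.82 to 9.04 in P21_WT and 7.05 to 8.55 in P21_KO. The hair shaft and inner root sheath markers, 8 genes, averaged 4.47 to 6.22 in P4_WT, 2.83 to 2.86 in P21_WT and 2.78 to 2.94 in P21_KO. The 5 measured Schwann cell markers went the other way, at 6.80 to 7.18 in P4_WT against 8.69 to 9.04 in the older groups. P4_WT replicate 2 stood apart from all 7 other arrays in immune markers (5.85 against 3.04 to 3.58), mast cell markers (4.93 against 2.07 to 2.38) and endothelial markers (5.61 against 3.21 to 3.59). Keratinocyte markers were present in all groups, at 6.86 to 7.89, 8.29 to 8.56 and 7.62 to 8.55 in the same order, and fibroblast markers at 6.28 to 7.004, 6.00 to 6.57 and 5.69 to 6.33. The 2 measured red blood cell markers averaged 2.68 to 2.97 on all arrays. Braf, a target of the deletion, read 5.99 and 7.20 in P21_WT and 6.57, 6.49, 6.30 and 5.66 in P21_KO. The difference of -0.34 ± 0.36 (SE) missed limma's threshold (adjusted p = 0.944), and which exons its probes cover is not given in the sources used here.

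**Figure D1:**
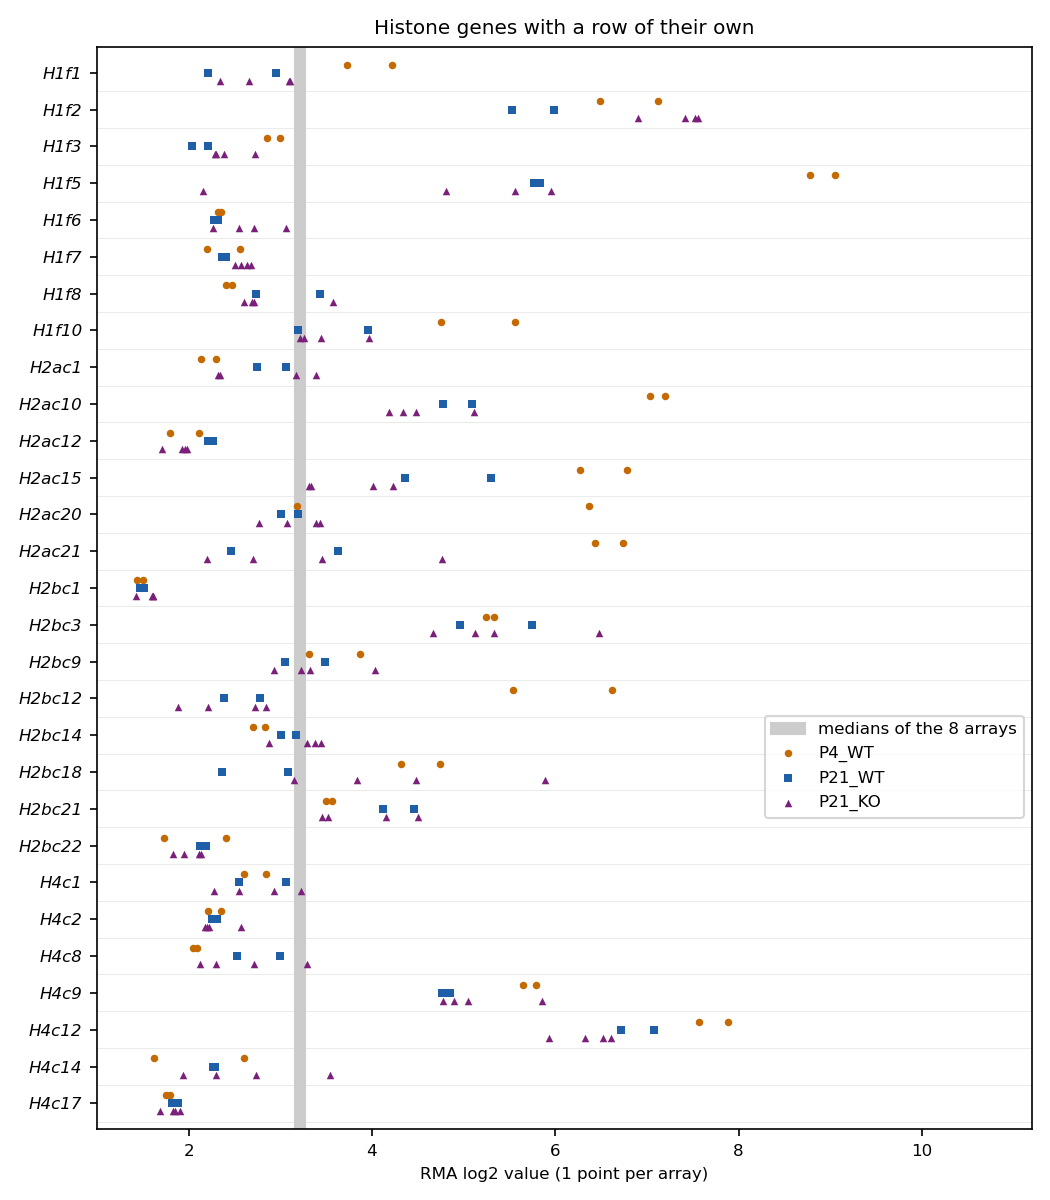
RMA log2 value of each of the 29 histone genes with a row of its own, 1 point per array, in P4_WT (circles), P21_WT (squares) and P21_KO (triangles). The grey band spans the medians of the 8 arrays. H2bc12, H2ac10, H2ac21, H2ac15 and H1f5 have both P4_WT arrays above all 6 older arrays, and the H1f2 points of P21_KO lie above both P21_WT points.

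The first comparison, P21_WT minus P4_WT, asks how melanocyte stem cells differ from the melanoblasts of young pups. Age and cell population change together in it and cannot be told apart, so "with age" names the comparison and not a cause. H2bc12, a core H2B gene, and H2ac10, a core H2A gene, fell with age, by 11.3-fold and 4.54-fold. They are the 2 called genes of the 29 (6.9%), both lower. Over all genes, 1.61% were called, 0.852% lower and 0.757% higher. No histone gene was called higher, and 0 passed an unadjusted p under 0.05 in that direction against 12 in the lower direction, where all genes gave 5.17% and 7.46%. In 13 of the 29, both P21_WT arrays lay below both P4_WT arrays, and in 7 both lay above. Among all genes these patterns took 22.1% and 21.4%. The median log2 change of the 29 was -0.036 against 0.0022 over all genes. In a fit of the 4 wild-type arrays alone, both calls were lost (adjusted p = 0.0681 for H2bc12 and 0.0523 for H2ac10) and H1f5 was called instead (adjusted p = 0.0457).

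The H1 linker histones gave no called gene with age, and their median log2 change was -0.93. Of the 8 genes, 6 were lower without overlap between the groups, a pattern found in 22.1% of all genes. H1f6 is among these 6, although it was below the array median on all arrays and its change was only -0.036 ± 0.25 (SE). H1f5, a linker histone of dividing cells, read 9.05 and 8.78 in P4_WT and 5.83 and 5.76 in P21_WT. The groups lay far apart on these 4 arrays, but its change of -3.12 ± 1.04 (SE) missed limma's threshold (adjusted p = 0.234). The fit takes its spread from all 3 groups, and in P21_KO H1f5 read 5.96, 4.81, 2.16 and 5.56, with replicate 3 the low array. Without P21_KO replicate 3 the same age change was called (limma's adjusted p = 0.0129). H1f10 read 4.75 and 5.56 in P4_WT and 3.20 and 3.95 in P21_WT, a change of -1.58 ± 0.37 (limma's adjusted p = 0.0903). H1f1 read 4.22 and 3.72 against 2.95 and 2.21, with a change of -1.39 ± 0.34 (limma's adjusted p = 0.105). H1f2 read 6.49 and 7.12 against 5.53 and 5.98, with a change of -1.05 ± 0.30 (limma's adjusted p = 0.163). For each of these 3 genes the ages did not overlap, and none passed. H1f3 was below the array median on all arrays, and its change was -0.80 ± 0.20 (limma's adjusted p = 0.103). The germ cell genes H1f6, H1f7 and H1f8 read between 2.20 and 3.57 on all arrays. H1f8, the oocyte linker histone, had a change of 0.65 ± 0.35 (limma's adjusted p = 0.524).

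Among the H2A genes, H2ac10 read 7.04 and 7.20 in P4_WT and 4.78 and 5.10 in P21_WT. It fell by 2.18 ± 0.30 (SE) on the log2 scale (limma's adjusted p = 0.0121). The ages did not overlap, and the P21_KO arrays, at 5.11, 4.34, 4.49 and 4.19, were low as well. The call was lost without P4_WT replicate 2, P21_WT replicate 1 or P21_WT replicate 2 (adjusted p up to 0.0889). H2ac21, on chromosome 3, read 6.43 and 6.74 in P4_WT and 2.46 and 3.63 in P21_WT, and its change of -3.54 ± 0.75 missed limma's threshold (adjusted p = 0.0636), but was called without P21_KO replicate 1 (adjusted p = 0.0224). A second and dimmer row of H2ac21 read 2.51 and 3.25 against 2.23 and 2.42, so that the rows differ in what they show. H2ac15 read 6.27 and 6.79 against 5.30 and 4.36, with a change of -1.70 ± 0.41 (limma's adjusted p = 0.1). H2ac20 was the exception in overlap. It read 3.18 and 6.37 in P4_WT and 3.01 and 3.20 in P21_WT, and the high array is P4_WT replicate 2, which also stood apart in immune, mast cell and endothelial markers. Their part in the value was not tested. H2ac12 and H2ac1, a testis histone, were dim, at 1.71 to 2.27 and 2.13 to 3.39 over all arrays.

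Among the H2B genes, H2bc12 read 6.62 and 5.54 in P4_WT and 2.78 and 2.39 in P21_WT. It fell by 3.49 ± 0.42 (SE) on the log2 scale (limma's adjusted p = 0.00737), to a level below the array median. Its P21_KO arrays read 2.72, 1.88, 2.21 and 2.85, in the range of P21_WT or below it, except replicate 4. The call was lost without P21_WT replicate 2 (adjusted p = 0.0568). The own row of its divergent neighbour H2ac12 showed no such step: it read 1.80 and 2.11 in P4_WT and 2.22 and 2.27 in P21_WT, below the array median throughout. H2ac12 is also named in shared rows, some of them called lower with age, and its part in those cannot be told. H2bc18 read 4.32 and 4.74 against 2.36 and 3.08, with a change of -1.81 ± 0.74 (limma's adjusted p = 0.359). H2bc21 pointed the other way, with 3.50 and 3.56 in P4_WT, 4.46 and 4.12 in P21_WT and a change of 0.75 ± 0.35 (limma's adjusted p = 0.425). H2bc3 differed by 0.065 ± 0.52, with overlapping groups. H2bc1, H2bc9, H2bc14 and H2bc22 had changes between -0.32 and 0.32. The 8 H2B genes with a row of their own thus did not move together, and their median change was 0.043. Most H2B symbols also stand in shared rows, described below. Of 8 such distinct rows, 2 were called lower with age and 0 higher, where 0.742% and 0.647% of all rows were called. Without overlap, 4 were lower and 0 higher, against 22.1% and 22% of all rows.

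Of the 7 H4 genes, which encode the same or nearly the same protein, none was called. H4c12 read 7.57 and 7.88 in P4_WT and 6.72 and 7.08 in P21_WT, a change of -0.83 ± 0.26 (limma's adjusted p = 0.2). H4c9 read 5.79 and 5.65 against 4.77 and 4.85, a change of -0.91 ± 0.33 (limma's adjusted p = 0.28). In both genes the ages did not overlap. H4c8 had the largest difference in the higher direction, 0.69 ± 0.36 (limma's adjusted p = 0.503), and it read no more than 3.30 on any array. H4c1, H4c2, H4c14 and H4c17 had differences between -0.0017 and 0.16 that did not pass, and H4c1, H4c2 and H4c17 were below the array median on all arrays.

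**Figure D2:**
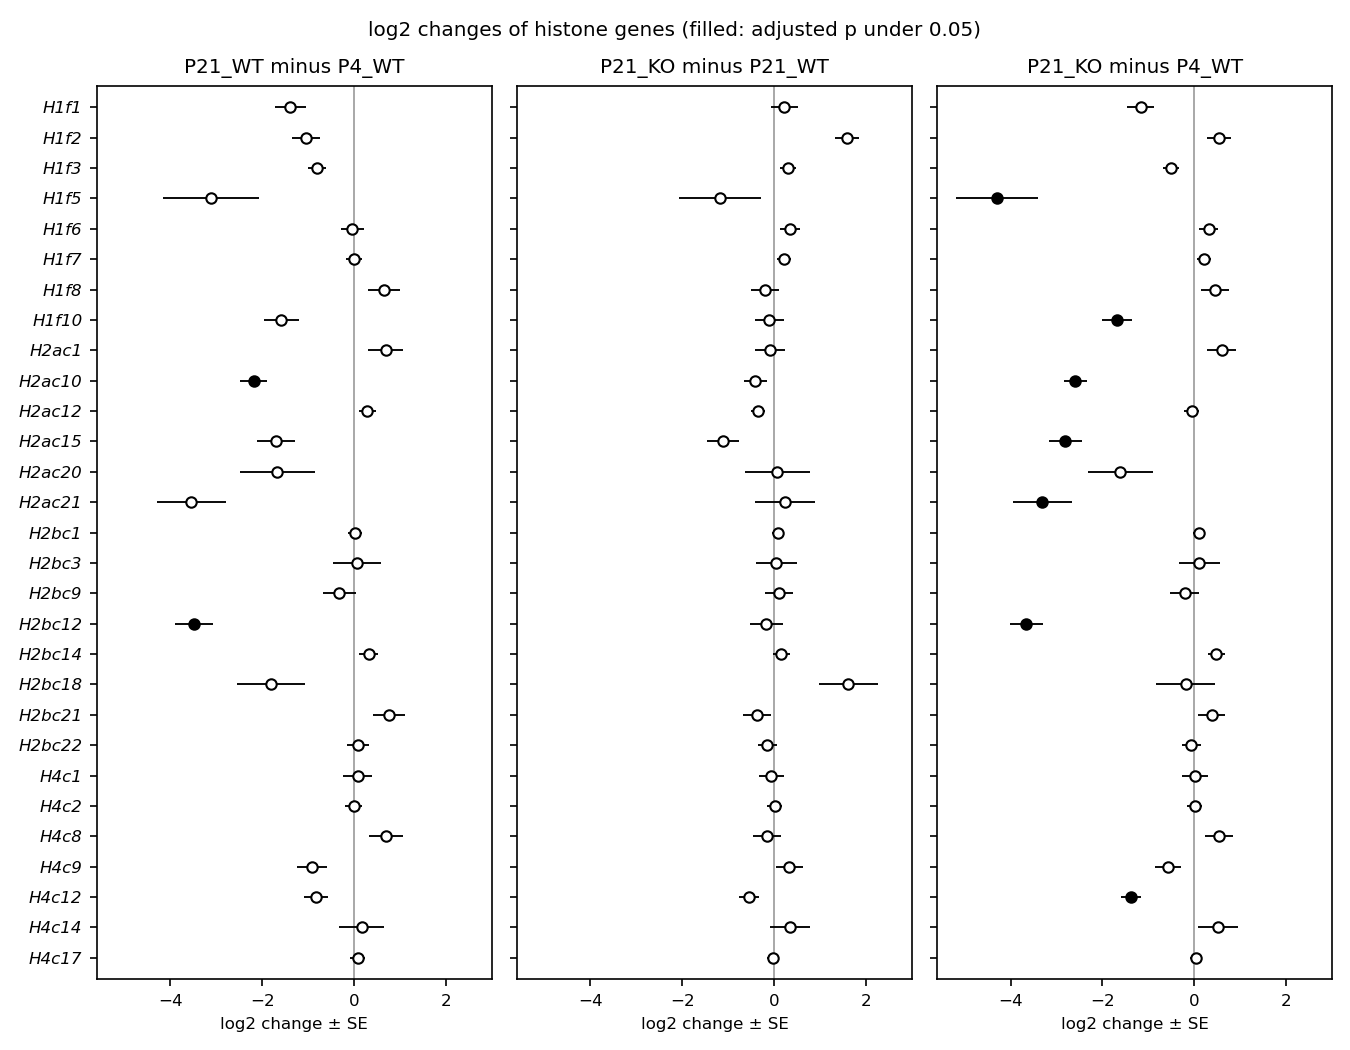
log2 change ± SE of each of the 29 histone genes from limma's fit over 8 arrays, for P21_WT minus P4_WT (left), P21_KO minus P21_WT (middle) and P21_KO minus P4_WT (right). Filled points had an adjusted p under 0.05: H2ac10 and H2bc12 on the left, no gene in the middle, and 7 genes, all lower, on the right.

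The second comparison, P21_KO minus P21_WT, asks what the loss of B-raf and C-raf does in melanocyte stem cells. No histone gene changed by limma's test, nor did any of the 22180 genes (0% called), while 1447 genes (6.52%) had an unadjusted p under 0.05. Among the 29 histone genes, 2 had such a p in the higher direction and 2 in the lower, where all genes gave 2.84% and 3.69%. The P21_KO arrays all lay above the P21_WT arrays in 4 histone genes and below in 3, against 7.75% and 7.64% of all genes. The median log2 change was 0.013, beside 0.0071 over all genes.

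H1f2, a widely expressed linker histone, had the smallest p of the 29 and ranked 16 of 22180. It read 5.53 and 5.98 in P21_WT and 6.90, 7.41, 7.55 and 7.53 in P21_KO. The groups did not overlap, and P4_WT, at 6.49 and 7.12, lay between and partly within the P21_KO range. The change was 1.59 ± 0.26 (SE), or 3.02-fold, and missed limma's threshold (adjusted p = 0.284). Leaving out single arrays gave changes from 1.37 to 1.82 with an adjusted p of 0.171 to 0.8. The melanocyte lineage mean moved the other way in the same arrays, from 8.82 to 9.04 in P21_WT down to 7.05 to 8.55 in P21_KO. Of the 10 markers, 8 were lower without overlap, a pattern found in 7.64% of all genes. Kit and Sox10 overlapped, with changes of -0.95 ± 0.64 and 0.074 ± 0.18. The part of these markers in the H1f2 value was not tested.

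H2bc18, on chromosome 3, read 2.36 and 3.08 in P21_WT and 3.15, 4.48, 3.84 and 5.89 in P21_KO. The P21_KO arrays lay above both P21_WT arrays and spanned 2.74, with replicate 4 the highest, which also had the lowest melanocyte mean, 7.05. The change of 1.62 ± 0.64 (SE) missed limma's threshold (adjusted p = 0.736). H1f3 had a change of 0.30 ± 0.17 (limma's adjusted p = 0.855), and H1f7 of 0.21 ± 0.15 (limma's adjusted p = 0.884), both on dim rows without overlap.

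In the lower direction, H2ac15 read 5.30 and 4.36 in P21_WT and 4.23, 3.31, 3.33 and 4.01 in P21_KO. The groups did not overlap, but P21_WT replicate 2 lay close to the highest P21_KO array, and the change of -1.11 ± 0.36 (SE) missed limma's threshold (adjusted p = 0.632). H4c12 read 6.72 and 7.08 against 6.52, 5.93, 6.61 and 6.33, a change of -0.55 ± 0.22 (limma's adjusted p = 0.74). H2ac12 had a change of -0.35 ± 0.16 on a dim row (limma's adjusted p = 0.781). The change of H1f5, -1.18 ± 0.90 (limma's adjusted p = 0.896), rested on P21_KO replicate 3 and was -0.35 without it. For the genes that fell with age, the difference between genotypes did not pass: H2ac10 had -0.41 ± 0.26 (limma's adjusted p = 0.879) and H2bc12 had -0.17 ± 0.36 (limma's adjusted p = 0.978). H1f1 and H1f10 differed by 0.22 ± 0.30 and -0.10 ± 0.32, and H2bc3 by 0.047 ± 0.45, with overlapping groups.

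The third comparison sets P21_KO against P4_WT, which differ in age, cell population and genotype together, and it shares arrays with the other 2. It sets 4 arrays against 2, more than the age comparison, but P21_KO replicates 2, 3 and 4 may not come from separate mice. Its calls may therefore rest on no more animals than those of the age comparison. Of the 29 histone genes, 7 fell (24.1%) and 0 rose, where 7.73% of all genes were called, 4.68% lower and 3.05% higher. An unadjusted p under 0.05 was reached by 9 in the lower direction and 1 in the higher, where all genes gave 12.4% and 8.1%. In 9 genes all P21_KO arrays lay below both P4_WT arrays and in 4 above, against 15.5% and 14.2% of all genes. The median log2 change was -0.058, beside 0.019 over all genes.

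The 7 genes come from every class measured. H1f5 fell by 4.29 ± 0.90 (SE) on the log2 scale, or 19.6-fold (limma's adjusted p = 0.0249), and the call was lost without P4_WT replicate 1, P4_WT replicate 2 or P21_KO replicate 2 (adjusted p up to 0.128). The H1f5 change leaned on P21_KO replicate 3, its low array, and was -3.47 without it. H2bc12 fell by 3.66 ± 0.36, or 12.7-fold (limma's adjusted p = 0.00103). H2ac21 fell by 3.31 ± 0.65 (limma's adjusted p = 0.0191), a call lost without P4_WT replicate 1, P4_WT replicate 2 or P21_KO replicate 3. On its dimmer row the change of H2ac21 was -0.59 and was not called. H2ac15 fell by 2.81 ± 0.36, or 7-fold (limma's adjusted p = 0.00313), and H2ac10 by 2.59 ± 0.26, or 6.01-fold (limma's adjusted p = 0.00108). H1f10 fell by 1.68 ± 0.32 (limma's adjusted p = 0.0174) and H4c12 by 1.38 ± 0.22 (limma's adjusted p = 0.00862), and both calls were lost without P4_WT replicate 2. H2ac10, H2ac15 and H2bc12 kept their calls whichever of the 8 arrays was left out. H1f1 missed the threshold, at -1.17 ± 0.30 (limma's adjusted p = 0.0509). In the higher direction, H2bc14 (0.48 ± 0.19), H1f2 (0.54 ± 0.26) and H2ac1 (0.59 ± 0.32) had limma's adjusted p of 0.191, 0.294 and 0.364.

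The sequences of clustered histone genes are nearly the same within a class, and 38 rows of the table name several genes at once. They hold the 37 histone symbols with no row of their own and many of the 29. Of these rows, 3 repeat the values of another, which leaves 35. They were fitted with all 25335 annotated rows. With age, 6 of the 35 fell and 0 rose, against 0.742% and 0.647% of all rows. In 15 of the 35 the P21_WT arrays lay below both P4_WT arrays and in 1 above, against 22.1% and 22% of all rows. These rows overlap in the genes they name and are not independent of each other, nor of the single rows. Which gene of a row gave its value cannot be told from the files.

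The 6 rows that fell hold H2A, H2B and H3 genes, and the rows described next were chosen after their values were seen. A row of 10 H2A genes read 4.92 and 5.20 in P4_WT, 1.98 and 2.08 in P21_WT, and 1.74, 1.89, 1.97 and 1.84 in P21_KO. It fell with age by 3.03 ± 0.17 (SE) on the log2 scale, or 8.18-fold (limma's adjusted p = 0.000935), to a level below the array median on all 6 older arrays. Another row that names the same 10 genes read 1.86 and 2.18 in P4_WT and 2.07 and 2.00 in P21_WT, so rows with one gene list differ. Further uncalled rows of these 10 genes changed by 0.18, -0.22, -0.66 and -0.94 with age. A row of 12 H2A genes read 7.26 and 7.64 against 6.23 and 5.95, and fell by 1.36 ± 0.23 (limma's adjusted p = 0.0346). A row of 12 H2B genes read 7.34 and 7.21 against 5.80 and 5.83, and fell by 1.46 ± 0.21 (limma's adjusted p = 0.0182). Another row of these 12 H2B genes fell by 1.63 ± 0.28 (limma's adjusted p = 0.0366), and a second called row of the 10 H2A genes by 2.07 ± 0.38 (limma's adjusted p = 0.043).

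The H3 genes are seen only here. A row of H3c1, H3c8, H3c10 and H3c11 read 3.29 and 3.19 in P4_WT, 1.59 and 1.84 in P21_WT, and 1.78, 1.80, 1.62 and 1.76 in P21_KO. It fell with age by 1.52 ± 0.16 (SE) on the log2 scale, or 2.87-fold (limma's adjusted p = 0.00577), although its P4_WT values were near the array median. Of the 12 H3 rows, 6 were below the median on all arrays, and this was the only one called with age. Other rows that name the same genes changed by -0.77 ± 0.39, -0.27 ± 0.16 and 0.072 ± 0.19, so rows with this gene list differ too. A row of 8 H3 genes, H3c2 among them, read 8.17 and 6.73 in P4_WT and 6.77 and 5.94 in P21_WT, with overlapping groups. This H3c1 row and the first H2A row kept their age calls whichever of the 8 arrays was left out. The other 4 age calls were each lost without any one of the 4 wild-type arrays, P4_WT replicates 1 and 2 and P21_WT replicates 1 and 2, and 3 of them also without some single P21_KO arrays. A row of 6 H4 genes read 4.30 and 4.56 in P4_WT and 3.27 and 2.81 in P21_WT, and its change of -1.39 ± 0.27 missed limma's threshold (adjusted p = 0.0539).

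Between the genotypes 0 of the 35 shared rows changed (0% of all rows), but 6 were higher in P21_KO without overlap and 2 lower, against 7.65% and 7.69% of all rows. The first row of H2bc4, H2bc6 and H2bc8 read 8.34 and 8.78 in P21_WT and 9.70, 9.64, 10.08 and 10.05 in P21_KO. The P4_WT arrays, at 9.04 and 9.35, lay between. The change of 1.31 ± 0.21 (SE) ranked 18 among the rows by p and missed limma's threshold (adjusted p = 0.28). A second row of the same genes read 5.71 and 4.99 against 7.97, 6.90, 6.81 and 8.23, a change of 2.13 ± 0.55 (limma's adjusted p = 0.577). The row of H2ac18, H2ac19 and H2ac20, on chromosome 3, had a change of 0.60 ± 0.24 (limma's adjusted p = 0.753), with P21_KO replicate 2, at 8.88, close to P21_WT replicate 1, at 8.75. Against P4_WT, 8 of the 35 rows fell in P21_KO and 0 rose, where 4.53% and 2.98% of all rows were called. They were the 6 rows above, the row of 6 H4 genes (-1.49 ± 0.23, limma's adjusted p = 0.00861) and a row of H2bc7, H2bc11, H2bc13 and H2bc15 (-1.65 ± 0.32, limma's adjusted p = 0.0209). The called H3c1 row, the first H2A row and the first row of 12 H2B genes kept this call whichever array was left out. The other 5 calls were lost without P4_WT replicate 2, that of the H2bc7 row also without P4_WT replicate 1 or P21_KO replicate 3, and that of the second row of 10 H2A genes also without P4_WT replicate 1 or P21_KO replicate 1 or 2.

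**Figure D3:**
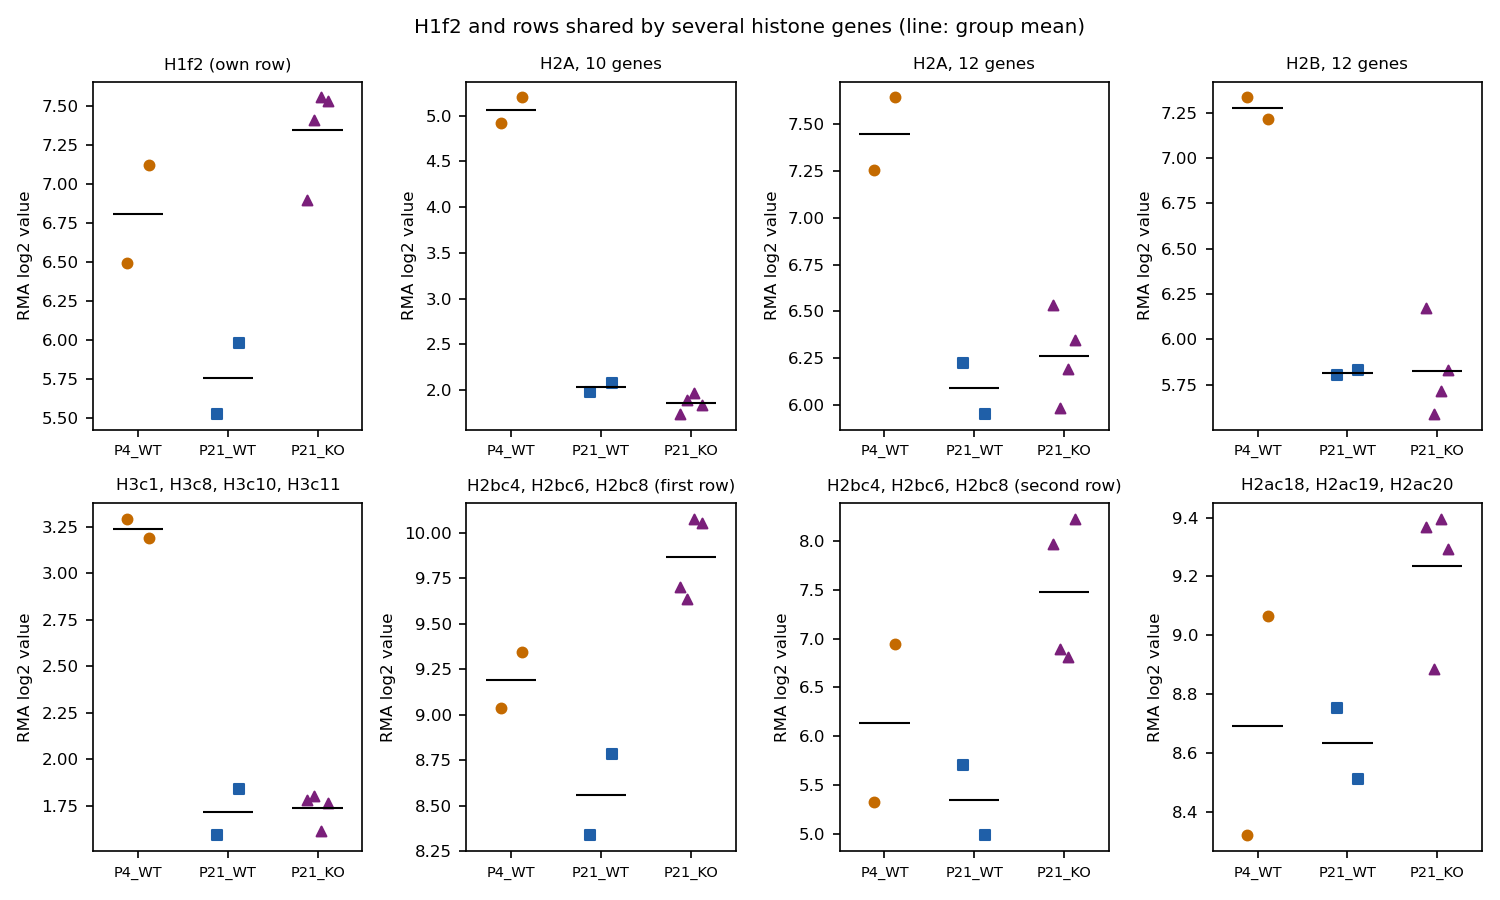
RMA log2 values by array, with group means as lines, for H1f2 and 7 rows shared by several histone genes, in P4_WT, P21_WT and P21_KO. Each panel has its own vertical scale. The plotted H2A rows of 10 and 12 genes, H2B row of 12 genes and called H3c1 row are higher in P4_WT than in both older groups. H1f2 and both rows of H2bc4, H2bc6 and H2bc8 are highest on average in P21_KO.

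The genes that work with histones were taken from lists of known roles. Mki67, a marker of dividing cells, read 7.50 and 7.86 in P4_WT, 4.76 and 4.82 in P21_WT, and 4.94, 3.82, 3.76 and 4.32 in P21_KO, and fell with age by 2.89 ± 0.37 (SE) on the log2 scale (limma's adjusted p = 0.0103). Of 22 measured genes of DNA replication and S phase, 3 fell with age and 0 rose, and all 22 changes had a negative sign, with a median of -0.92. Over all genes, 0.852% were called lower with age, 0.757% higher, and 49.8% had a negative sign. Rrm2, a subunit of the reductase that makes deoxynucleotides, fell by 3.67 ± 0.47 (limma's adjusted p = 0.0103). Mcm6 and Mcm5, subunits of the replicative helicase, fell by 1.56 ± 0.26 and 1.51 ± 0.26 (limma's adjusted p = 0.0289 and 0.0336). Gins2, a helicase cofactor, had a change of -1.31 ± 0.27 (limma's adjusted p = 0.063, and 0.0372 without P4_WT replicate 2). Against P4_WT, 14 of the 22 fell in P21_KO and 0 rose, where 4.68% of all genes were called lower. Between the genotypes none was called, and the median was -0.21. Cdt1, which loads the helicase, had a change of -0.63 ± 0.18 (limma's adjusted p = 0.609), and Tk1, a thymidine kinase, of -0.41 ± 0.22 (limma's adjusted p = 0.852).

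Of 14 measured genes of histone transcription and mRNA processing, 2 fell with age (0.852% of all genes were called lower) and 0 rose, with a median change of -0.57. Slbp, which binds the histone stem-loop, read 6.50 and 6.22 in P4_WT and 5.29 and 5.12 in P21_WT, and fell by 1.15 ± 0.18 (SE; limma's adjusted p = 0.0217). Eri1, an exonuclease that trims the stem-loop, read 6.36 and 6.39 against 4.73 and 4.72, and fell by 1.65 ± 0.30 (limma's adjusted p = 0.0373). Cpsf2, a subunit of the cleavage complex, had a change of -1.32 ± 0.27 (limma's adjusted p = 0.0558, and 0.0382 without P21_KO replicate 4), and Lsm10, a protein of the U7 particle, of -1.07 ± 0.43 (limma's adjusted p = 0.344). The activator Npat read 5.43 and 4.98 against 3.87 and 5.03, with overlapping groups, and its partner Casp8ap2 differed by -0.22 ± 0.55. Between the genotypes 0 of 14 were called. Cdk2, which activates NPAT, read 8.42 and 8.13 in P21_WT and 7.65, 7.49, 6.57 and 7.07 in P21_KO, a change of -1.08 ± 0.29 that did not pass (limma's adjusted p = 0.571). Pmel, a pigment gene whose RefSeq span overlaps that of Cdk2 and one of the melanocyte markers, read 9.79 and 9.47 in P21_WT and 8.61, 8.08, 7.38 and 6.31 in P21_KO, and its part in the Cdk2 value was not tested. Lsm11, on a dim row, had a change of 0.52 ± 0.15 (limma's adjusted p = 0.609), and Npat and Slbp of 0.15 ± 0.35 and -0.053 ± 0.16. Against P4_WT, 5 of the 14 fell in P21_KO and 0 rose, beside 4.68% and 3.05% of all genes.

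Histone chaperones, which carry histones to DNA, gave 0 called of 19 with age, with 18 of the 19 lower in sign and a median of -0.42, where all genes gave 0.852% called lower and 49.8% lower in sign. Nasp had a change of -1.16 ± 0.25 (limma's adjusted p = 0.0699). The subunits of chromatin assembly factor, Chaf1a and Chaf1b, had changes of -1.16 ± 0.26 and -0.70 ± 0.16 (limma's adjusted p = 0.0784 and 0.083). Anp32e, a chaperone of H2A.Z, had -1.03 ± 0.27 (limma's adjusted p = 0.124), and Asf1b -0.53 ± 0.35 (limma's adjusted p = 0.634). Against P4_WT, 2 of the 19 fell in P21_KO, Chaf1a and Chaf1b, and 0 rose, beside 4.68% and 3.05% of all genes. Between the genotypes 0 of 19 were called, and the smallest p belonged to Daxx, an H3.3 chaperone (0.58 ± 0.21, limma's adjusted p = 0.689), and its partner Atrx (-0.45 ± 0.28, limma's adjusted p = 0.874).

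Of 9 measured histone genes outside the naming rule, 1 fell with age and 0 rose, beside 0.852% and 0.757% of all genes. Cenpa, the centromeric H3, read 6.16 and 6.23 in P4_WT and 4.71 and 4.36 in P21_WT, and fell by 1.66 ± 0.27 (SE; limma's adjusted p = 0.0241). H2ax, the H2A of the DNA damage response, read 8.36 and 8.73 against 7.57 and 7.07, a change of -1.23 ± 0.38 (limma's adjusted p = 0.201). H2az2 and H2az1, which encode H2A.Z, had changes of -0.97 ± 0.30 and -0.46 ± 0.21 (limma's adjusted p = 0.202 and 0.42). Macroh2a2 had -1.13 ± 0.45 (limma's adjusted p = 0.34), and -1.95 without P4_WT replicate 2 (adjusted p = 0.0165). Between the genotypes, Cenpa, H2ax and H2az1 had -0.59 ± 0.23, -0.80 ± 0.33 and -0.26 ± 0.18, and none was called. H2aw read 4.88 and 4.72 in P21_WT and 5.06, 5.50, 5.97 and 6.63 in P21_KO, without overlap, a change of 0.99 ± 0.37 (limma's adjusted p = 0.715). In P21_KO against P4_WT, 4 of the 9 fell (Cenpa, H2ax, H2az2 and H2az1) and 0 rose, where all genes gave 4.68% and 3.05%. The age calls of Rrm2, Mcm6, Mcm5, Slbp, Eri1 and Cenpa were each lost in a fit of the 4 wild-type arrays alone (limma's adjusted p = 0.0578 to 0.119), that of Slbp also with an intensity trend in the prior (adjusted p = 0.063). Each was lost without P21_WT replicate 2. All but that of Rrm2 were lost without P21_WT replicate 1 too. Those of Mcm6, Mcm5, Eri1 and Cenpa were lost without P4_WT replicate 2, and those of Mcm5, Slbp, Eri1 and Cenpa without P4_WT replicate 1. Mcm5 was also lost without P21_KO replicate 1 or 2, and Eri1 without P21_KO replicate 2 or 3.

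**Figure D4:**
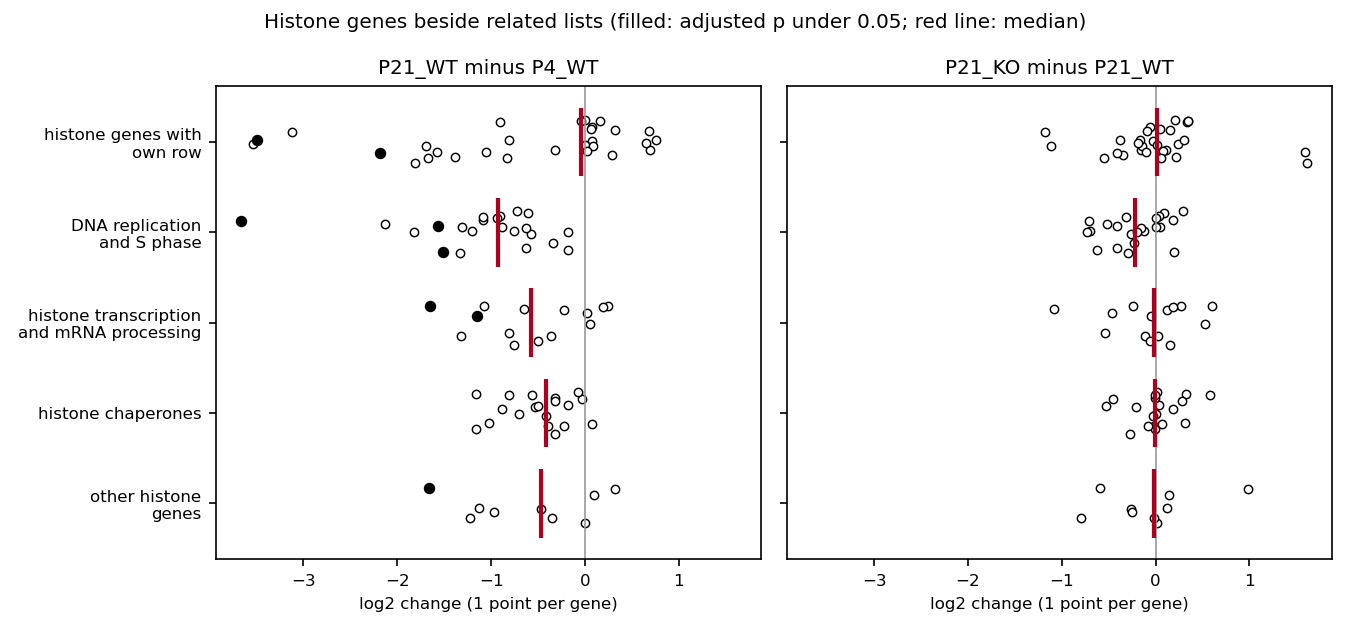
log2 change of each gene, 1 point per gene, for P21_WT minus P4_WT (left) and P21_KO minus P21_WT (right), in the 29 histone genes and 4 lists of genes that work with them. Red lines are medians and filled points had an adjusted p under 0.05 by limma. The DNA replication list lies wholly below 0 on the left (median -0.92), while the histone genes spread from -3.54 to 0.75.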

How the data were processed

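Gene expression of 8 sorted samples was measured on Affymetrix mouse gene arrays. The authors deposited log2 values, for which the submitters' processing notes name RMA and Affymetrix Expression Console without versions. RMA subtracts background, quantile-normalizes arrays and summarises probes. How the amplification kit primes mRNAs without a poly(A) tail is not stated in the labels.

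Of 41345 rows, 25335 were annotated with a gene, 23521 with 1 symbol, 1814 with several, and 16010 were unnamed here. Symbols were checked against the mouse gene table, and 0 needed an update. For the 1082 genes with several rows the row with the highest mean was kept, giving 22180 genes, dim ones included. A model of the 3 groups was fitted over all 8 arrays (limma 3.58.1 in R 4.3.3, lmFit and eBayes, 5 residual degrees of freedom). P-values are two-sided and Benjamini-Hochberg adjusted over all genes, or over all 25335 annotated rows for rows that name several genes. The number of arrays limits the precision. The fit was tested on simulated data. Alternatives covered the arrays in the fit, prior, array weights, normalization, dim genes, choice of row, blocks, threshold and leaving out each array.

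Named genes were, by rule, the highest-mean gene of each class, H1f1, H1f2, H1f3, H1f5 and H1f10, up to 10 called genes per direction or otherwise the 3 with the smallest p, and from each list up to 4 genes by age p, up to 2 by genotype p and a fixed few (Slbp, Npat, Casp8ap2, Asf1b, Chaf1b, H2az1, H2ax, Cenpa). The other histone genes given by value were added after their values were seen. Members and lists were chosen with earlier results of these data known. Promoter sequences are from RefSeq (GRCm38.p6).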

Additional observations from a re-analysis of the deposited data

Results flagged for a closer look

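Of 56 histone genes and named list genes screened in the 4 P21_KO arrays, 7 had 1 array whose gap to the nearest of the others exceeded Dixon's critical share of the group's range. Chance flags about 5% of such groups. H1f8 read 3.57 in P21_KO replicate 4 against 2.61 to 2.72 in the others. H4c2 read 2.57 in replicate 4 against 2.18 to 2.22. H2bc1 read 1.43 in replicate 2 against 1.60 to 1.62. Rrm2 read 3.06 in replicate 4 against 4.15 to 4.25, and Atrx 5.86 in replicate 4 against 6.76 to 6.81. Cdt1 read 3.55 in replicate 3 against 4.00 to 4.07. Macroh2a2 read 2.00 in replicate 2 against 2.35 to 2.42. Replicate 4 was the outlying array in 4 of the 7. The 3 histone cluster genes among them, H1f8, H4c2 and H2bc1, are dim, and their gaps are differences of 1 unit or less.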

How the results depend on the processing

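With only the arrays of the 2 groups compared, 49 genes and 1 histone gene, H1f5, were called with age, against 357 and 2. With the replicate block, which leaves 2 residual degrees of freedom, 45 genes and 1 histone gene, H2bc12, were called with age and 463 genes, against 1715, between P21_KO and P4_WT. At an adjusted p under 0.10, 674 genes and 4 histone genes were called with age. With dim genes left out, the median of the histone genes that passed (15 and 16 of 29) was -1.58 with age and -1.27 between P21_KO and P4_WT, which the filter favours, since a gene bright only in one group passes through it. Leaving out single arrays gave 119 to 338 genes and 0 to 3 histone genes called with age (median -0.18 to -0.019), 0 to 15 and 0 between genotypes (median -0.062 to 0.052), and 921 to 1529 and 3 to 8 between P21_KO and P4_WT (median -0.10 to 0.037).

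The genotype change of H2bc3 turned to -0.062 with array weights and -0.35 with the block, and its age change to -0.0019 with median centring. That of Chaf1b turned to -0.0033, -0.0070, -0.0060 and -0.0046 with array weights, cyclic loess, median centring and the block, and that of Casp8ap2 to -0.44 with the block. The cause was not tested. Without single arrays, H2bc3 ranged from -0.33 to 0.46 with age and, between genotypes, from -0.35 to 0.44, Chaf1b from -0.058 to 0.064, Casp8ap2 from -0.31 to 0.35, H1f1 from -0.15 to 0.59, H1f10 from -0.48 to 0.28, Npat from -0.43 to 0.73 and Slbp from -0.14 to 0.031. None of these was called. Apart from single arrays, 717 further values kept direction and side of the threshold, 18 lost a call and 7 gained one. Testing every annotated row was chosen after the annotation was seen. Arrays with the same replicate number in different groups deviated from their group means with correlations of -0.037 to 0.006. In a group of 2 arrays the deviations mirror each other, so these values cannot show whether such arrays share a batch. The common number in the labels of some P21_KO arrays is a different one and was not checked this way. Groups of 2 arrays limit all comparisons.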
